A study of Mus musculus with 6 samples.

Results

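Chromatin accessibility at 10 marker genes of cells other than the crypt epithelium, and of the epithelium itself, was examined in ATAC-seq libraries from mouse small intestinal crypts. The genes were Ptprc, Cd3e, Cd3g, Cd8a and Gzmb for lymphocytes, Pdgfra, Col1a1 and Vim for stromal cells, Pecam1 for endothelial cells and Epcam as the epithelial reference. A peak belonged to a gene when the name attached to it in the deposited table was exactly that gene's symbol, a rule that uses no measured difference between groups. It selected 18 of 123510 peaks, of which 61914 carried a gene name, and they fell on 6 of the 10 genes. ATAC-seq measures open chromatin by letting a transposase insert sequencing adaptors where DNA is not covered by nucleosomes.

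There were 3 wild type (WT) libraries and 3 from mice with a Vil-Cre mediated deletion of Smarcad1 (KO), all on a C57BL/6 background, and the ages of the mice for these libraries are not given in the sources used here. Smarcad1 encodes a chromatin remodeler, and its floxed exons are 12 to 14 in a mouse line derived from 1 embryonic stem cell clone. Libraries were made from nuclei of 50000 cells of whole crypts, released with EDTA, passed through strainers and not sorted. Nothing says which same-numbered mice were littermates, and p-values measure the spread between these libraries.

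Crypts are epithelial, but intraepithelial lymphocytes sit between the epithelial cells, and the surrounding lamina propria holds fibroblasts, capillaries and leukocytes. Cre expressed from the Villin promoter acts in the epithelium, so that lymphocytes, fibroblasts and endothelial cells carried along into a KO preparation keep Smarcad1. Ptprc encodes CD45, the phosphatase on the surface of all leukocytes. Cd3e and Cd3g encode chains of the T cell receptor complex, Cd8a its co-receptor on cytotoxic T cells, and Gzmb the protease granzyme B. Pdgfra is a receptor on fibroblasts, Col1a1 a chain of type I collagen, and Vim the intermediate filament vimentin of mesenchymal cells, endothelium and leukocytes. Pecam1 encodes CD31, an adhesion molecule at endothelial junctions, and Epcam an adhesion molecule of epithelial cells.

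The sequences of 4 accessible or reference regions show how unlike these sites were (GRCm38 coordinates, RefSeq GRCm38.p6 genome). In the first 3, capitals mark CpG dinucleotides. The Vim stretch lay inside the Vim peak and ended at the gene start (chr2:13573627-13573926, plus strand), the Cd3g stretch was the promoter partly covered by the Cd3g peak (chr9:44980432-44980681, minus strand), and the Epcam stretch was the promoter of the epithelial reference (chr17:87635729-87635978, plus strand). In the Ptprc stretch, the intronic peak with the largest difference between KO and WT (chr1:138165151-138165450, plus strand), capitals mark the RUNX motif TGTGGT on the opposite strand.

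Vim: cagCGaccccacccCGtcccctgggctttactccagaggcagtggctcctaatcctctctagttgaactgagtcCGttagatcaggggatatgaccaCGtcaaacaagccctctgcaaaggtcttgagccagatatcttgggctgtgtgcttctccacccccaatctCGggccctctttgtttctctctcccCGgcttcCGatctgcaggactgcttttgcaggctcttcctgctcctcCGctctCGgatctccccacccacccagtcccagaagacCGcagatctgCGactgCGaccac
Cd3g: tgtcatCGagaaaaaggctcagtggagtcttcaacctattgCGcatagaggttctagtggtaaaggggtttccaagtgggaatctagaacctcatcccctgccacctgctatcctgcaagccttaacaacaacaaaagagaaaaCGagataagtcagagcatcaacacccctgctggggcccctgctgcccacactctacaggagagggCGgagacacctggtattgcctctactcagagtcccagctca
Epcam: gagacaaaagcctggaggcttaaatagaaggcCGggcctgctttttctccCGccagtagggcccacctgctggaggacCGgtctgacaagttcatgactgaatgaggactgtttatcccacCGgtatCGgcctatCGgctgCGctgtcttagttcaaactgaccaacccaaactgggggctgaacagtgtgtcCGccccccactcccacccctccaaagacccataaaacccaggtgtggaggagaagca
Ptprc: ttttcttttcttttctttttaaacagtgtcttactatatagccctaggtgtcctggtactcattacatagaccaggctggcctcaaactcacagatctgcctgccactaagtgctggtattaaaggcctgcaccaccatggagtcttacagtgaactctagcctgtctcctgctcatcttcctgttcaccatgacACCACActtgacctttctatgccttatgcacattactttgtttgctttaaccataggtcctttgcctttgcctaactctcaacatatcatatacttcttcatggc

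The Vim stretch held 12 CpG dinucleotides, with an observed over expected ratio of 0.507, and the Ptprc peak held 0. The Cd3g promoter held 4 (ratio 0.242) and the Epcam promoter 8 (ratio 0.405). These stretches are not whole peaks. The whole peaks had ratios of 0.558 at Vim and 0.0926 at Cd3g, and Epcam had no peak. Over all peaks the median ratio was 0.162, against 0.543 over the 16854 peaks within 1 kb of a gene start. In the Ptprc peak, 42.7% of the bases were soft-masked in the reference as repeats or low complexity, compared with a median of 16.4% over all peaks.

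Depth differed between libraries. The reads in peaks ranged from 6180717 to 16301164 in WT and from 4339306 to 7721797 in KO, and values were scaled to the deepest library, WT3, so that 1 read counted as 1.00 in WT3 and as 3.99 in KO3. The contrast between peaks at gene starts and peaks over 5 kb from any gene start was 1.90, 1.81 and 2.12 (difference of median log2 values) in WT1 to WT3 and 1.95, 1.73 and 2.28 in KO1 to KO3, lowest in both number 2 libraries. Smarcad1 itself had 4 peaks, 0 of them over the deleted exons, so accessibility gave no check of the genotype labels. Its level ranged from 6.33 to 7.43 in WT and from 6.22 to 7.45 in KO (log2 normalised reads per kb of peak), and 0 of its 4 peaks passed the test.

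Of the 10 marker genes, 3 had a peak within 1 kb of their annotated start: Cd3g, Col1a1 and Vim. Ptprc, Pdgfra and Pecam1 had peaks only further into the gene. Cd3e, Cd8a, Gzmb and Epcam had 0 peaks by name and 0 within 5 kb among the rows analysed here. The nearest peak lay 7.17 kb from Cd3e, 40.8 kb from Cd8a, 53.3 kb from Gzmb and 6.73 kb from Epcam. Epcam could therefore not serve as the reference, and a list of 25 epithelial genes took its place, of which 21 had a peak carrying their name and gave the list's level. A start peak was counted by position whatever its name, so that Tjp3, whose start peak is named Pip5k1c, counts among accessible starts but not in the level. Vil1, the Villin gene, and Esrp2, both in the epithelial list, also had 0 peaks by name and 0 within 5 kb. A missing peak therefore does not by itself show closed chromatin.

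Lists of further cell type markers also held few accessible starts. Of 25 T cell, NK cell and intraepithelial lymphocyte genes, 3 had a peak at the start (12%), and of 10 genes shared by leukocytes 0 had one. The count was 2 of 10 (20.0%) for B and plasma cell genes, 2 of 15 (13.3%) for myeloid genes, 5 of 21 (23.8%) for fibroblast and muscle genes, 5 of 15 (33.3%) for endothelial genes and 4 of 10 (40.0%) for neural and glial genes. In all, 21 of 106 non-epithelial genes had an accessible start (19.8%), against 18 of 25 epithelial genes (72.0%) and 13001 of 21951 protein coding genes (59.2%). Clec7a, in the myeloid list, was not found in the annotation and was counted as lacking a start peak. The lists differ in promoter type, and these shares were not tested against each other.

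**Figure D1:**
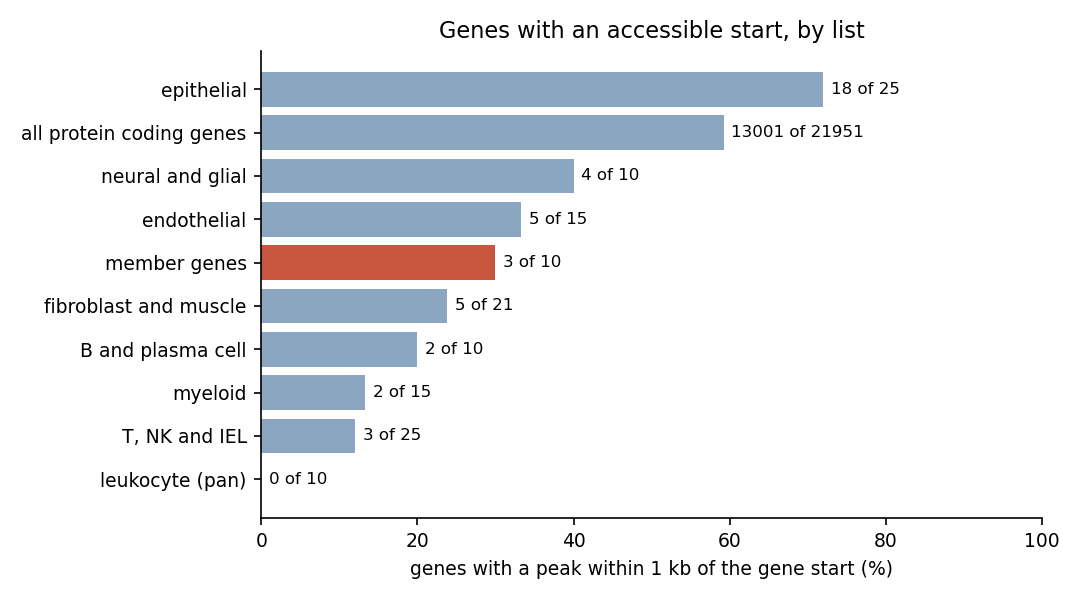
Percent of genes with a peak within 1 kb of the GENCODE gene start, by gene list, with the counts beside the bars. The epithelial list stood at 72.0%, all protein coding genes at 59.2%, the 10 member genes (red) at 30.0% and the 7 non-epithelial lists between 0% and 40.0%.

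The CpG ratio of starts with and without a peak was compared as a description, with no test. In windows from 250 bases before to 50 bases after the start, the median CpG ratio was 0.585 over the 21 non-epithelial genes with a start peak and 0.264 over 84 of the 85 genes without. Neural and glial genes went the other way, with medians of 0.389 with a start peak (4 genes) and 0.508 without (6 genes). The pooled ranges overlapped, from 0 to 1.03 with a start peak and from 0 to 0.809 without. The gene left out was Clec7a, for which there was no window. The epithelial genes gave 0.445 with a start peak (18 genes) and 0.186 without (7 genes), and 21938 protein coding gene starts gave 0.525. Among the members, the windows of Vim (0.585) and Epcam (0.454) had the highest ratios and that of Gzmb (0.101) the lowest.

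Short motifs were searched on both strands of the same windows. GGGCGG, the GC box, occurred at Cd3g, Col1a1 and Epcam and in 43.0% of all protein coding gene starts. GGAAGT, the core bound by ETS factors, occurred at Cd3e and Pecam1 (24.8% of all starts). TGTGGT, the RUNX core, occurred at Gzmb (15.3%), and TTTATG, a CDX core, at Ptprc, Gzmb and Epcam (10.7%). TATAAA was present at Col1a1 (12.6%). In the Ptprc peak printed above the RUNX core was the single match among these motifs, and 21.6% of the 20146 peaks of 300 bp hold it.

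Where the members had peaks, accessibility ranged from percentile 6.13 to 91.6 of all peaks by normalised reads per kb. Their median fell at percentile 43.8, with 12 of 18 below the median of all peaks, whereas the 65 peaks of the epithelial list had a median at percentile 87.6. By class the median percentile was 28.0 for the 5 lymphocyte peaks, 55.5 for the 3 stromal peaks and 44.3 for the 10 Pecam1 peaks. Averaged over the 6 libraries, the member peaks had between 26.3 and 264 normalised reads on the linear scale, and the lowest average of any peak in the table was 22.4. The recovered reads behind a member peak ranged from 4 to 298 per library. Bulk accessibility cannot tell fewer cells of a type from less open chromatin in each of them.

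Per kb of its peaks, Cd3g had the lowest level among the members in WT and Ptprc the lowest in KO. Cd3g stood at 5.91 ± 0.57 in WT and 6.55 ± 0.66 in KO (log2 per kb, SD, n = 3), and Ptprc at 6.38 ± 0.19 and 6.21 ± 0.15. Col1a1 gave 6.17 ± 0.42 and 6.51 ± 0.25, and Pdgfra 6.48 ± 0.31 and 6.43 ± 0.28. Vim gave 6.58 ± 0.37 and 6.73 ± 0.41, and Pecam1, with the highest WT level, 6.63 ± 0.20 and 6.64 ± 0.03. Ranked by level within WT or within KO, neighbouring members differed by less than the larger SD of the pair. In KO, Ptprc and Col1a1, which were not neighbours in rank, differed by more than either SD. The epithelial list stood above all of them at 7.48 ± 0.18 in WT and 7.57 ± 0.35 in KO, and in each library every member lay below it, except Cd3g in KO2 (7.26 against 7.23).

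**Figure D2:**
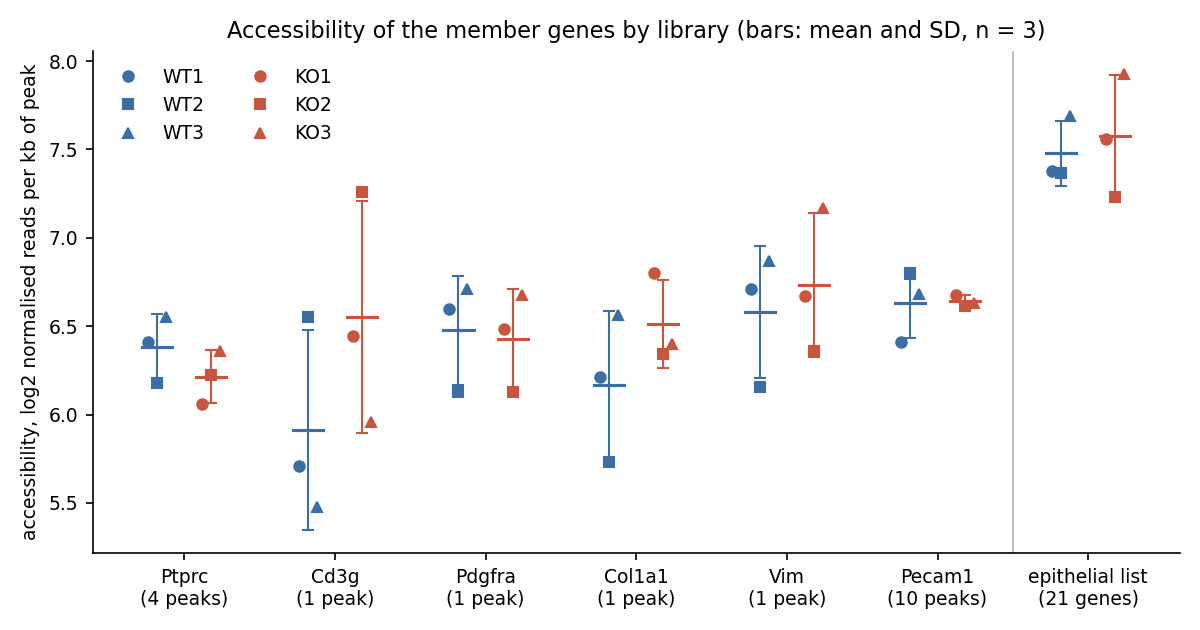
Level of each member gene with a peak, in log2 normalised reads per kb of its peaks, for the 3 WT libraries (blue) and 3 KO libraries (red), with the mean and SD of each group; the epithelial list is at the right. KO and WT overlapped for all 6 genes, and Cd3g was highest in WT2 and KO2 within each group.

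Between KO and WT, 0 of the 18 member peaks passed the test (limma, Benjamini-Hochberg adjusted over all peaks, threshold 0.05). The background was also 0% of 123510 peaks, with a smallest adjusted p of 0.144 anywhere. That count holds for this limma fit on log2 values. With edgeR, the paper reported sites of changed accessibility, most of them more open in KO. At an unadjusted limma p below 0.05, 1 member peak was lower in KO and 0 were higher, beside 1.37% of all peaks lower and 0.909% higher. All KO values lay above all WT values at 1 member peak and below them at 1, beside 2.7% and 4.1% of all peaks. The median difference over the 18 peaks was -0.031 (log2), against -0.018 over all peaks, with 8 higher and 10 lower in KO on average and a range from -0.91 to 0.64. The data therefore showed no detectable difference between KO and WT at these peaks at this depth, and the intervals below give the sizes that were not excluded.

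**Figure D3:**
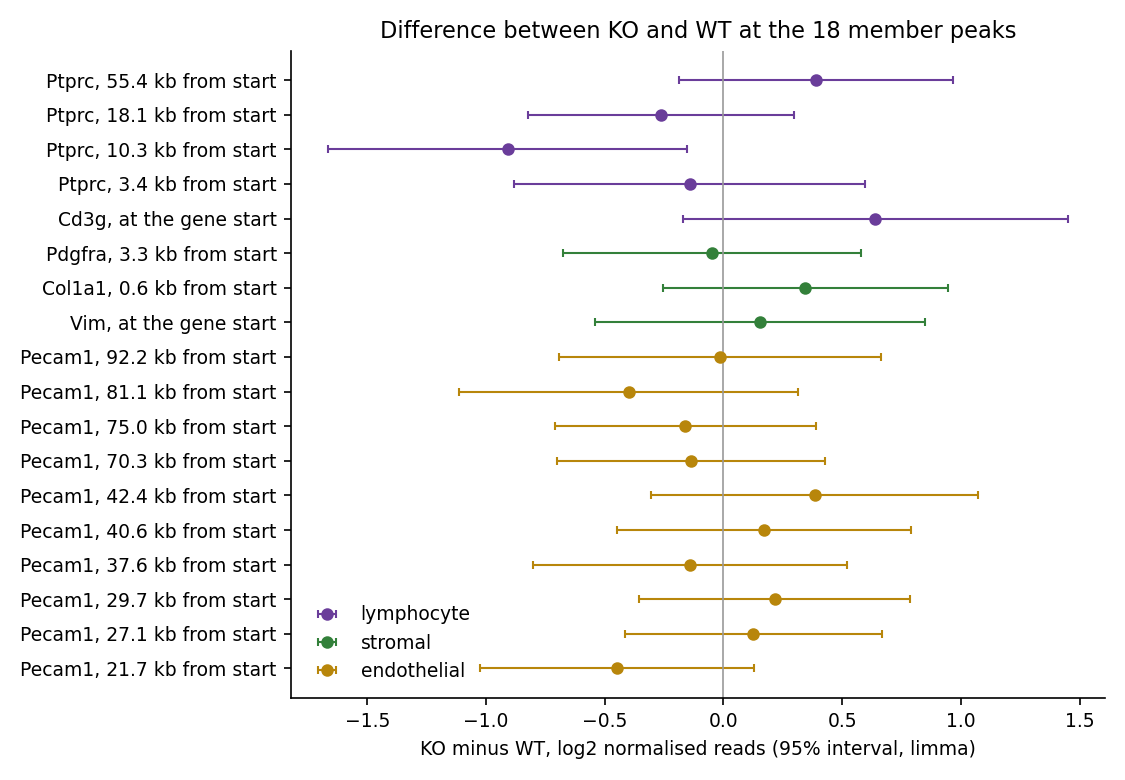
KO minus WT at the 18 member peaks in log2 normalised reads, with 95% intervals from limma, coloured by cell class and ordered by gene. The interval left out 0 at 1 peak, in Ptprc 10258 bp from the gene start, where the difference was -0.91.

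Ptprc, on chromosome 1 from 138062861 to 138175708 on the minus strand, had 4 peaks and none at its start. The densest lay in an intron 10258 bp from the start, the region whose sequence is given above, and also overlapped A130071D04Rik, a second annotated transcript there. Its values were 5.22, 4.97 and 5.09 in WT and 4.45, 4.10 and 4.00 in KO (log2 normalised reads). All 3 KO libraries were below all 3 WT libraries, at 19, 17 and 34 reads in WT and 10, 12 and 4 in KO. The difference was -0.91 ± 0.35 (SE, 95% interval -1.66 to -0.15), with an unadjusted limma p of 0.0216 and an adjusted p of 1.00. It did not pass the test. Between same-numbered libraries it was -0.77, -0.86 and -1.09.

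The other Ptprc peaks did not share this direction. At a coding exon (138119851 to 138120300) the values were 4.97, 4.88 and 5.21 in WT and 5.37, 5.27 and 5.58 in KO, and here all KO libraries were above all WT libraries. The difference was 0.39 ± 0.27 (SE), with an unadjusted limma p of 0.17. The remaining pair, in an intron and in a non-coding exon, differed by -0.26 and -0.14 with overlapping groups. Over all 4 peaks the Ptprc level differed by -0.17 between the KO and WT means, and the groups overlapped.

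Cd3g had a single peak, over its start on chromosome 9 (44980201 to 44980650), which reached into coding exon and UTR. Its values were 4.56, 5.40 and 4.32 in WT and 5.29, 6.10 and 4.80 in KO, from 12, 23 and 20 and from 18, 48 and 7 reads. The number 2 library was the highest of each group, and the groups overlapped because WT2 exceeded KO1 and KO3. The difference was 0.64 ± 0.38 (SE, 95% interval -0.17 to 1.45), the largest positive one among the members, with an unadjusted limma p of 0.113 and an adjusted p of 1.00. Between same-numbered libraries it was 0.74, 0.70 and 0.48. The signal contrast of both number 2 libraries was the lowest of their group, and its part in the Cd3g values was not tested.

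The stromal genes had 1 peak each. Vim had the densest, at percentile 73.0, over 2550 bp around its start on chromosome 2 (13573351 to 13575900). It measured 8.06, 7.51 and 8.22 in WT and 8.02, 7.71 and 8.52 in KO, a difference of 0.15 ± 0.33 (SE), with the groups overlapping. Col1a1 was open over a non-coding exon 577 bp into the gene on chromosome 11 (94936801 to 94937700), at 6.06, 5.58 and 6.41 in WT and 6.65, 6.19 and 6.24 in KO, a difference of 0.35 ± 0.28 (SE). WT3 lay within the KO range. Pdgfra was open over a UTR on chromosome 5 (75155551 to 75157500), at 7.56, 7.09 and 7.67 in WT and 7.45, 7.09 and 7.64 in KO, with a difference of -0.048 ± 0.29 (SE). For Vim, Col1a1 and Pdgfra alike the number 2 libraries were the lowest of each group, the opposite of Cd3g.

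Pecam1, on chromosome 11 from 106654217 to 106750628 on the minus strand, held 10 intronic peaks between 21728 and 92228 bp from its start. The densest of them (106720201 to 106720950) was at percentile 91.6 of all peaks, higher than any other member peak. It measured 6.83, 7.03 and 7.06 in WT and 6.98, 7.19 and 7.39 in KO, a difference of 0.22 ± 0.27 (SE). WT2 and WT3 lay above KO1, so the groups overlapped. A neighbour 27128 bp from the start was at percentile 83.9 with a difference of 0.12. The other 8 peaks were at percentiles from 6.13 to 73.4. Over the 10 peaks the differences ran from -0.45 to 0.38, with 4 higher and 6 lower in the mean of KO and overlapping groups at all of them.

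**Figure D4:**
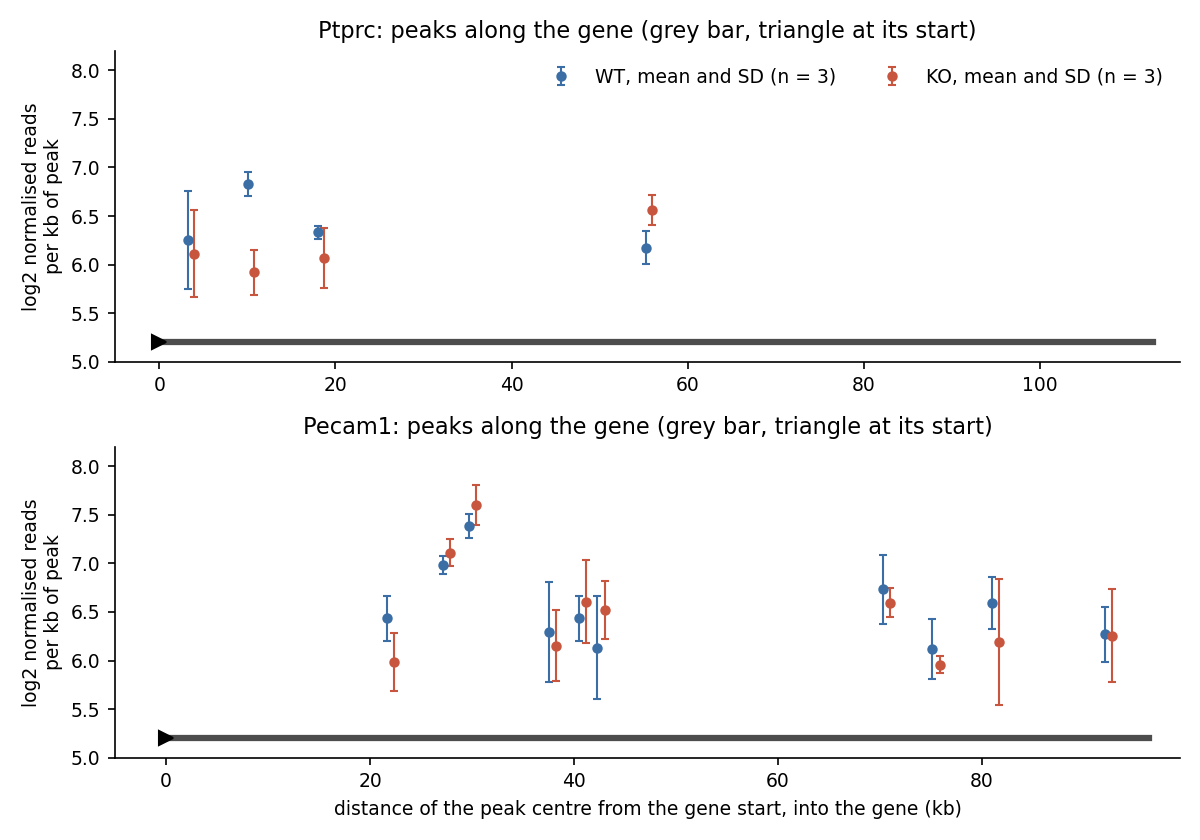
Peaks along Ptprc (top) and Pecam1 (bottom), by distance of the peak centre from the gene start in kb; points and bars give the mean and SD of log2 normalised reads per kb in 3 WT (blue) and 3 KO (red) libraries. Neither gene has a peak at its start, and the KO and WT points stand clear of each other at the intronic Ptprc peak nearest to 10 kb and at the coding exon, in opposite directions.

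A ratio within each library does not depend on how libraries were scaled to each other. The mean level of each class was therefore set against the epithelial list (difference of log2 levels per kb). For lymphocyte genes (Ptprc and Cd3g) it was -1.32, -0.998 and -1.68 in WT and -1.31, -0.49 and -1.77 in KO, with means of -1.33 ± 0.34 and -1.19 ± 0.65 (SD, n = 3). The number 2 libraries were the highest and the number 3 libraries the lowest in both groups and the number 1 libraries between them. This order was the reverse of that of the contrast between gene starts and distal peaks, whose part in it was not tested.

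Stromal genes gave -0.87, -1.36 and -0.98 in WT and -0.91, -0.96 and -1.18 in KO. Pecam1 gave -0.97, -0.57 and -1.01 in WT and -0.88, -0.62 and -1.30 in KO. The difference between the KO and WT means was 0.14 for the lymphocyte, 0.054 for the stromal and -0.086 for the endothelial class, each smaller than the SD within WT. No test was made of these scores, since their genes were chosen with results of these data known. All 3 classes lay below the epithelial list in each of the 6 libraries.

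The 7 wider lists behaved in the same way. Their levels lay below the epithelial list in all 6 libraries, between -0.55 and -1.36, and KO and WT overlapped for each list. KO3, the shallowest library, was the lowest library for each list. The difference between KO and WT means ran from -0.13 for fibroblast and muscle genes to 0.0048 for the leukocyte list. Each value depends on the epithelial list too, which was itself highest in KO3 (7.93) and lowest in KO2 (7.23). Of its 65 peaks, 0 passed the test, 49 were higher and 16 lower in the mean of KO, and the median difference was 0.12. Over all peaks 57876 were higher and 65634 lower. The mean level of the list was 0.096 higher in KO than in WT, and this enters every class score.

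**Figure D5:**
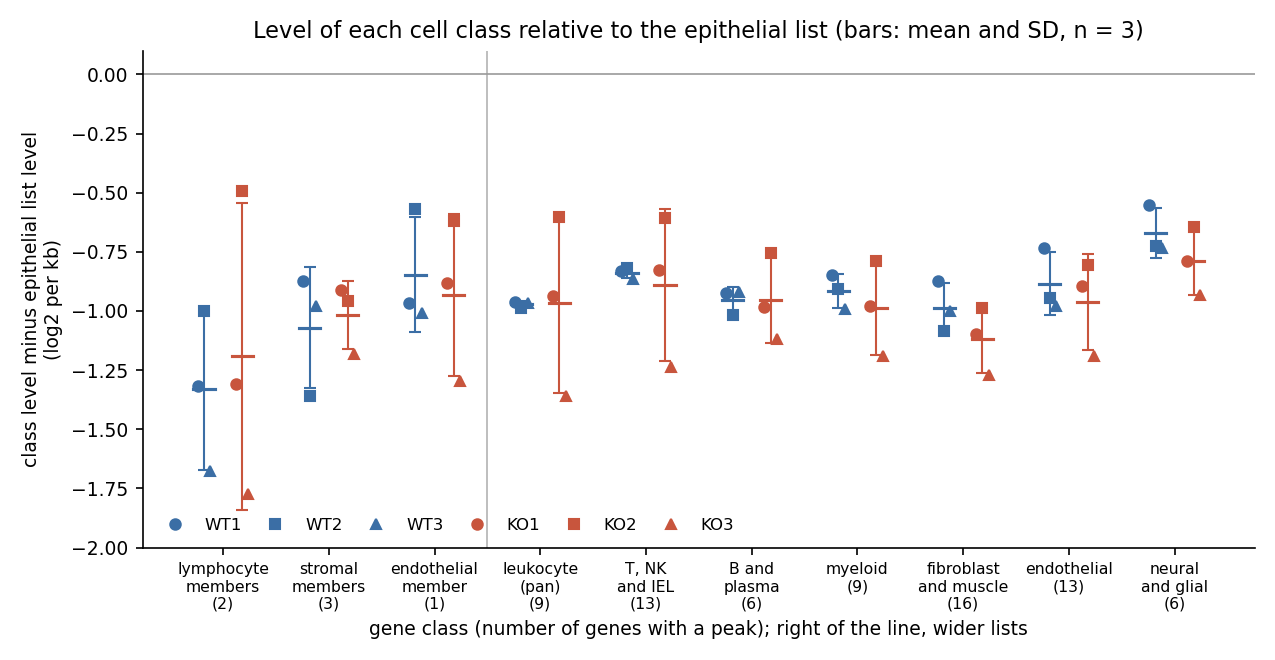
Level of each cell class minus the level of the epithelial list in the same library, in log2 per kb, for the member classes (left of the line) and the wider lists (right), with group means and SDs. All points lie below 0, KO and WT overlap throughout, and KO2 and KO3 (red square and triangle) mark the highest and lowest KO values in 9 of the 10 classes, the exception being the stromal members, where KO1 is highest.

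Of the 164 peaks named for the 106 non-epithelial genes, 0 passed the test. At an unadjusted limma p below 0.05, 0 were higher and 2 were lower in KO, beside 0.909% and 1.37% of all peaks. The KO values lay above all WT values at 8 peaks and below them at 5, beside 2.7% and 4.1% of all peaks. In the mean, 96 were higher and 68 lower in KO. The 2 lower peaks were in Col1a2, which encodes the partner chain of Col1a1 in type I collagen, and in Elavl4, a neuronal RNA-binding protein. The Col1a2 peak (chromosome 6, 4510201 to 4510650) measured 5.78, 5.13 and 5.36 in WT and 4.45, 3.84 and 5.00 in KO, a difference of -0.99 ± 0.36 (SE) with an unadjusted limma p of 0.0140. The Elavl4 difference was -0.59 ± 0.25 (SE, unadjusted limma p 0.0352), and the adjusted p was 1.00 for both. The Col1a2 and Col1a1 differences had opposite signs. In the epithelial list the rule named 1 peak, carrying the name of Esrp1, a splicing regulator of epithelial cells (chromosome 4, 11330551 to 11331000). This peak lay past the far end of the gene, at percentile 51.0, whereas the peak at the Esrp1 start was at percentile 99.6. The peak past the end measured 4.97, 4.97 and 4.91 in WT and 5.93, 5.47 and 5.32 in KO. All KO libraries were above all WT libraries there. The difference was 0.63 ± 0.27 (SE), with an unadjusted limma p of 0.0378 and an adjusted p of 1.00.

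The densest accessible start of each wider list was taken as an example of its signal. It was Klf5, a transcription factor of crypt cells, in the epithelial list, at percentile 99.8, and Bcl11b, a T lineage factor, in the T and NK cell list, at percentile 90.8. Bcl11b measured 9.31, 8.57 and 9.50 in WT and 9.25, 8.47 and 9.85 in KO, so both number 2 libraries were lowest there, unlike at Cd3g. The densest starts of the other lists were Kit (77.4), Erg (77.3), Tagln (77.2), Tubb3 (81.8) and Cr2 (60.1), given as percentiles. The peaks at Tagln and Tubb3 carry the names of the overlapping or neighbouring Sidt2 and Gm20388 in the deposited table.

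Candidates for likeness were 13995 peaks at the starts of other genes, with a mean of at least 20 recovered reads. Those whose pattern over the 6 libraries was most like that of the densest Ptprc peak were at Ano3, SNORA17 and AC159748.1. Their root mean square differences from it were 0.106, 0.155 and 0.167 on the log2 scale after centring each peak on its mean over the 6 libraries. The Ptprc peak itself had 4 to 34 reads per library. Likeness over 6 values among so many candidates does not show a relation to Ptprc. The likeness planned for Epcam could not be made without a peak.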

How the data were processed

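ATAC-seq reads were trimmed by the authors with Trim Galore 0.4.1 and mapped to GRCm38 with Bowtie2 2.2.5. In SeqMonk, with duplicates removed, a mapping quality cutoff of 20 and a distance cutoff of 1000 bp, they called 1 set of MACS peaks. Which libraries entered that step is not stated, nor is any shift for the transposase. The values the authors deposited are log2 read counts per peak, scaled to the largest library. A second, smaller table lists the outcome of the authors' own edgeR comparison and was not used.

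On the linear scale 100% of values were whole multiples of a constant per library (tolerance 0.01 read), which gave the reads. A peak without reads was written as 0.9 of a read. Read numbers, after the authors' removal of duplicates, are given to show counting depth only.

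KO and WT were compared with limma 3.58.1 on the deposited log2 values (R 4.3.3, lmFit, eBayes with trend, two-sided, all 123510 peaks, no filter or block). Reads could be recovered from these values, and limma voom on those reads was run as an alternative. A count test such as edgeR was not run here. Calls needed a Benjamini-Hochberg adjusted p below 0.05. The fit was also run on simulated data, without effects of replicate number and with larger changes than those seen at the members. That run does not show the power of the fit here. A gene's level is the log2 of its summed linear values over its summed peak width in kb, and a class level the mean over its genes with a peak. Gene starts came from GENCODE vM21. Scores against Epcam, planned at first, were replaced by scores against the epithelial list, because Epcam had no peak. RefSeq promoter sequences matched Cd3g and Epcam; the promoter table has no entry for Col1a1 and Pecam1.

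Named were all 10 members, each with its start peak and its densest peak in full, and of the wider lists the densest start peak and up to 2 peaks with the smallest unadjusted p below 0.05. Members and lists were chosen with earlier results of these data known. Alternatives were median centring, TMM scaling (0.3 of M and 0.05 of A trimmed per side), quantile normalisation, scaling to the total, limma voom on the recovered reads, a pseudocount of 5, minimum means of 10 and 50, start peaks alone, peaks within 5 kb whatever their name, the replicate block, and each library left out.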

Additional observations from a re-analysis of the deposited data

How the results depend on the processing

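Of the 18 member peaks, 0 were called under each alternative run, with a smallest adjusted limma p of 0.624, under the replicate block, and between 0 and 2 at an unadjusted p below 0.05. Over all peaks, where 0 were called, the count was 2 with median centring or TMM scaling, 3 with quantile normalisation, scaling to the total or limma voom on recovered reads, and 0 with a pseudocount of 5 or a minimum mean of 10, which removed no peak. Leaving out 1 library gave 0 to 30 calls, 30 without KO2 and 1 without WT3. A minimum mean of 50 and leaving out both number 2 libraries were added after seeing the data. The minimum mean kept 69134 peaks, 7 of them members, and called 0, and the fit without the number 2 libraries called 143. The cause of these changes was not tested. Leaving out WT2 or KO3 moved the median difference of all peaks from -0.018 to -0.14 and -0.11, and leaving out KO2 or WT3 moved it to 0.083 and 0.075.

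The replicate block called 272 peaks, 199 of them higher in KO. Deviations of same-numbered libraries correlated at 0.036, 0.418 and 0.407 for numbers 1, 2 and 3, against -0.349 for WT2 with KO3 and -0.462 for WT3 with KO2. WT1 correlated best with KO3 (0.040), so not every library was closest to its own number, and the labels name no shared litter or batch.

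For 6 member peaks followed through the alternatives, the direction held in 89 of the values and reversed in 5. For Col1a2, Elavl4 and Esrp1 it held in 46 and reversed in 0. The replicate block and the minimum means leave the difference at a kept peak unchanged, so those values could not reverse. Col1a2, Elavl4 and Esrp1 were named for a small p in these same data, so their count is not independent support. Pdgfra changed from -0.048 to 0.012 without WT1, 0.069 without WT3 and 0.10 without KO2, within a range of -0.22 to 0.10 over the libraries left out. Vim changed from 0.15 to -0.057 without WT2 and -0.065 without KO3, within a range of -0.065 to 0.34. With all 6 libraries, the largest moves of a class score were for the lymphocyte score. It went from 0.14 to 0.55 with start peaks alone (Cd3g) and to -0.10 with peaks within 5 kb whatever their name. For the lymphocyte genes, the 5 kb rule added only 2 peaks, both beside Cd3g and named Ube4a. It also added peaks to the epithelial list. Without 1 library the class scores ran from -0.21 to 0.43 for the lymphocyte, -0.091 to 0.15 for the stromal and -0.24 to 0.096 for the endothelial class. Their signs were therefore not fixed. Pecam1 has no start peak, and the alternative with start peaks alone gave no value for it. Member peaks with 4 to 50 reads in a library limit what these data can show for the lymphocyte genes.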
